A study of Drosophila melanogaster with 23 samples.

Results

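The X genes near the roX loci are the protein-coding genes of the X chromosome whose start lies within 750 kb of the start of roX1 (lncRNA:roX1, FBgn0019661, chromosome X, 3857230 to 3862697, minus strand) or of roX2 (lncRNA:roX2, FBgn0019660, chromosome X, 11579065 to 11580432, plus strand). Positions are those of the BDGP6.54 annotation, and a start is the lower coordinate of a gene. The rule used position only and gave 265 genes of the 17606 in the count table, 97 nearest roX1 and 168 nearest roX2, out of 2169 protein-coding X genes. Of these, 242 had enough counts to be tested (89 near roX1 and 153 near roX2). The other 23 did not, among them inaF-A, Or10a and Gr10a, which had no count in any library. The outermost genes inside the window were CG15209, CG15210 and sbr at 736.9, 739.8 and 746.3 kb, and the nearest outside were peb, Alms1b and Alms1a at 760.3, 770.1 and 773.8 kb. The genes near roX were compared with the 1733 tested protein-coding X genes farther away and with 10170 tested autosomal genes.

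In flies the dosage compensation (MSL) complex raises transcription from the single male X. Its roX RNAs are made from genes on the X that are themselves strong entry sites of the complex, which then spreads over active genes. The complex acetylates lysine 16 of histone H4 (H4K16) through Mof, and its subunit Msl-3 binds trimethylated lysine 36 of histone H3 (H3K36), the mark that Set2 deposits. Genes flanking a roX locus are thus neighbours of the places where the complex first assembles.

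Total RNA of whole first-instar (L1) larvae was counted in 23 libraries, each from 25 to 30 larvae of both sexes reared at 25 °C. The genotypes were the stock yw (3 libraries, replicates 2 to 4), a Set2 mutant labelled Set21 (4 libraries), and 4 histone genotypes with 4 libraries each. The histone control was labelled H3.3CtrlH3.2HWT, the H4K16R larvae H3.3CtrlH4K16R, the larvae with H3.3K36R alone H3.3K36RH3.2HWT, and the combined H3K36R larvae H3.3K36RH3.2K36R. The labels do not expand Ctrl or HWT, and do not describe the crosses or transgenes behind these genotypes. The study's question concerns Set2, H3K36 and the X of males, while the share of males in these pools is not given. Set2 itself was at 70.4 to 82.4 CPM (counts scaled to library size) in yw and at 4.97 to 7.69 CPM in the Set2 mutant; its log2 fold change was -3.57 ± 0.11 (SE, with an edgeR adjusted p of 1.31e-15). The histone substitutions cannot be checked from counts. Totals ran from 111138070 to 157973821 counts.

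Summed markers of neurons, muscle, midgut, fat body, cuticle and hemocytes were detected in every library. No single marker was at 0 over all libraries of a group, and some sums differed between groups without overlap. In the Set2 mutant 7 neuron markers summed to 571 to 1062 CPM against 1481 to 1633 CPM in yw, and 5 fat body markers to 7195 to 9645 against 10075 to 13648 CPM. In combined H3K36R 4 midgut markers summed to 2594 to 3265 CPM against 5473 to 8202 CPM in the histone control, and the fat body markers to 2427 to 3711 against 7610 to 9584 CPM. Cuticle markers were lower there too, at 64.6 to 82 against 97.9 to 134 CPM. Sums were higher for neuron markers, at 1649 to 1850 against 1381 to 1617 CPM, and for hemocyte markers, at 281 to 335 against 254 to 280 CPM. Libraries of the histone genotypes also spread within their groups along 1 main axis across all genes. On it the Set2 mutant lay at 68.8 to 85.7, yw at 2.10 to 8.28, combined H3K36R at -41.3 to 4.5 and the histone control at -32 to 42.3. H4K16R replicate 3 stood apart from its group, at 97.9 against -32.1 to -20 for the other 3. In whole larvae fewer cells of a type and less RNA per cell cannot be told apart, and the part of the marker differences in the results was not tested.

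The roX RNAs were the landmarks, and both were lower in larvae with H3.3K36R alone than in the histone control. In the 4 histone control libraries roX1 was at 1309, 1304, 1099 and 1556 CPM, and in the 4 H3.3K36R libraries at 657, 826, 863 and 745 CPM. The groups did not overlap, and the log2 fold change was -0.77 ± 0.15 (edgeR adjusted p = 0.00568). roX2 was at 122, 127, 90.8 and 105 CPM in the control and at 53.5, 64.2, 70 and 59.1 CPM in H3.3K36R, again without overlap, with a log2 fold change of -0.85 ± 0.18 (adjusted p = 0.0104). Both RNAs had lower means in yw than in this control. In yw roX1 was at 819 to 1031 CPM, overlapping H3.3K36R, and roX2 at 71 to 91.3 CPM, just above H3.3K36R. In combined H3K36R roX1 was at 1497, 1992, 1625 and 1597 CPM, above every H3.3K36R library. The log2 fold change of combined H3K36R against H3.3K36R alone was 1.12 ± 0.15 for roX1 (adjusted p = 2.78e-06). For roX2 it was 0.43 ± 0.18 and did not pass (adjusted p = 0.0504).

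Against the histone control, combined H3K36R had roX1 at a log2 fold change of 0.35 ± 0.15 (adjusted p = 0.0673) and roX2 at -0.42 ± 0.18 (adjusted p = 0.0629), neither of which passed. H4K16R libraries had roX1 at 1397, 1129, 792 and 1309 CPM, overlapping the control, with a log2 fold change of -0.19 ± 0.15 (adjusted p = 0.60). The lowest of them, replicate 3, was also the lowest for roX2, at 69.4 CPM against 99.9 to 133 CPM in the other 3. In the Set2 mutant roX1 was at 627, 786, 731 and 628 CPM against 1031, 819 and 939 CPM in yw. This fall of 0.42 on the log2 scale passed (SE 0.16, edgeR adjusted p = 0.035), but not when yw replicate 2 or 4 or Set2 replicate 1 or 4 was left out (adjusted p from 0.0801 to 0.167). With the axis as a covariate the roX1 log2 fold change was -0.19 (adjusted p = 0.46). The Set2 mutant and yw do not overlap on that axis, so such a fit cannot tell the axis from the genotype. About 7.17% of the roX1 exons overlap the gene ec on the other strand, and whether counting used strand is not given. Y-linked genes, which mark males in general, summed to 0.445 to 0.514 CPM in yw, 0.454 to 2.18 CPM in the Set2 mutant and 7.01 to 20 CPM in the histone genotypes. Single genes differed where sums overlapped: of 6 tested Y-linked genes 4 were higher and 1 lower in combined H3K36R than in the histone control. Over all genes 16.4% were higher and 22.8% lower there. What sets these sums apart was not tested.

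**Figure D1:**
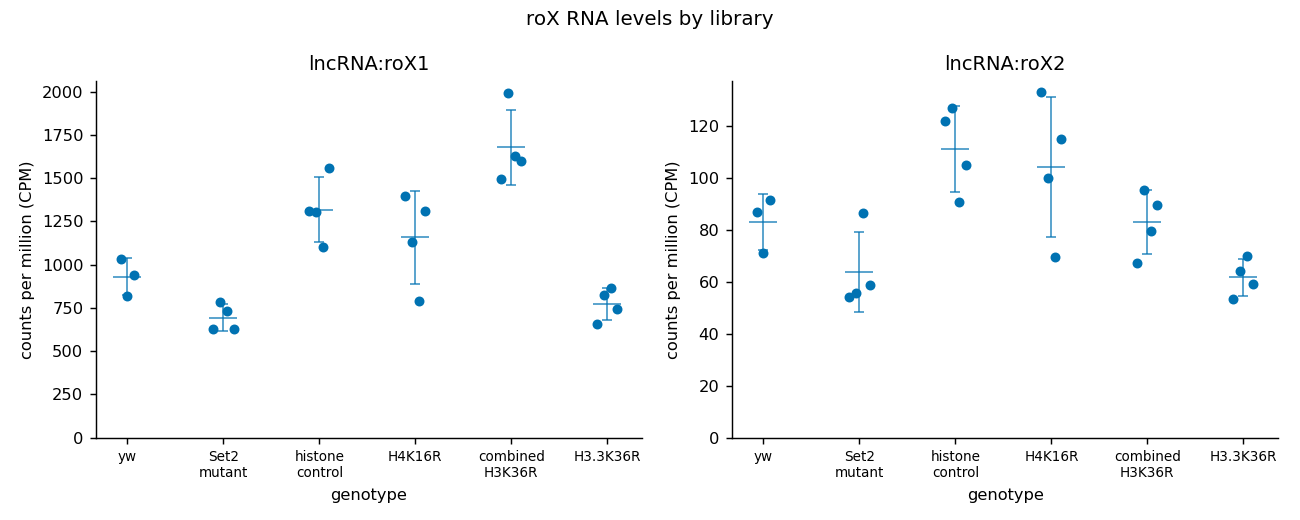
Levels of roX1 (left) and roX2 (right) in CPM on linear axes by genotype, with 1 point per library and the mean ± SD. All 4 libraries with H3.3K36R alone lie below all 4 histone control libraries for both RNAs, and roX1 is highest in combined H3K36R, at 1497 to 1992 CPM.

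Genes near roX resembled other X genes in length and had a similar median level, but the loci differed. Median gene length was 2509 bp near roX, 2558 bp elsewhere on the X and 2080 bp on the autosomes, and 18.87%, 14.92% and 16.62% of the genes had a single exon. The median level of the tested genes was 17.39, 20.74 and 16.11 CPM in the same order. In mean log2 CPM the genes near roX1 lay below other X genes in every genotype, by group means of -0.56 to -0.84, and those near roX2 lay at -0.03 to 0.22. Members ranged from genes read near 0 to Hsp60A and Hsc70-3, chaperones of the mitochondrion and of the endoplasmic reticulum, at 91 to 1122 and 227 to 2205 CPM. Together the 265 genes took 1.41% to 1.58% of all counts as group means.

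To place each library on 1 scale, the mean log2 CPM of autosomal genes was subtracted from that of the genes near roX. This relative level was 0.03, 0.05, 0.08 and 0.02 in the 4 histone control libraries and -0.24, -0.23, -0.10 and -0.31 in the 4 H4K16R libraries. Every H4K16R library lay below every control library, with replicate 3 the closest to them, and the difference of the means was -0.26 ± 0.05 (SE). In combined H3K36R the relative level was 0.24, 0.24, 0.27 and 0.15, and with H3.3K36R alone it was 0.12, 0.17, 0.18 and 0.17. Both groups lay above the control without overlap, by 0.18 ± 0.03 and 0.12 ± 0.02. In yw it was 0.09, 0.04 and -0.01, and in the Set2 mutant 0.15, 0.10, -0.04 and 0.11, so that these groups overlapped.

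X genes farther from roX moved the same way in H4K16R, by -0.20 ± 0.03 against autosomal genes, and in combined H3K36R, by 0.09 ± 0.01, both without overlap. The level of genes near roX relative to the other X genes was therefore compared as well. It was lower in H4K16R than in the control by 0.07 ± 0.02, and higher by 0.09 ± 0.02 in combined H3K36R and by 0.10 ± 0.02 with H3.3K36R alone, without overlap in any of the 3. In the Set2 mutant it was higher than in yw by 0.115 ± 0.038, and the groups overlapped slightly. There the roX2 genes gave 0.134 ± 0.024 without overlap and the roX1 genes 0.083 ± 0.084 with overlap. When only genes of at least 5 CPM were averaged, an alternative added after the data were seen, the H4K16R difference turned, to 0.01 ± 0.02 higher, those of combined H3K36R and H3.3K36R became 0.05 ± 0.02 and 0.06 ± 0.02 higher, and the groups overlapped in each. The Set2 difference to yw was then 0.033 ± 0.015, also with overlap. Relative to autosomal genes, the same genes gave -0.21 ± 0.05 in H4K16R, 0.08 ± 0.02 in combined H3K36R and 0.08 ± 0.01 in H3.3K36R, all without overlap. For these genes the histone control itself lay below yw, with group means of 0.127 and 0.181. Combined H3K36R and H3.3K36R were at 0.209 and 0.207, so their distance from yw was smaller than from the control.

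**Figure D2:**
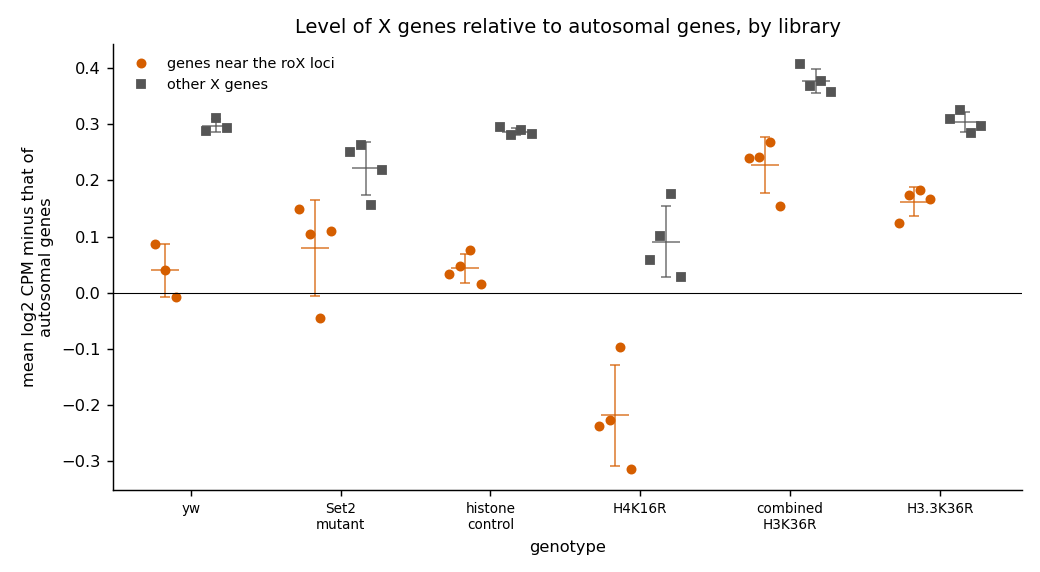
Mean log2 CPM of the tested genes near the roX loci (circles) and of other tested X genes (squares) after subtracting that of autosomal genes, with 1 point per library and the mean ± SD for each of the 6 genotypes. In H4K16R both sets lie below their histone control values, and the genes near roX fall from 0.02 to 0.08 in the control to -0.31 to -0.10.

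Replacing H4K16 with arginine, which cannot be acetylated, gave a small and widespread lowering of the genes near roX. Their median log2 fold change against the histone control was -0.17, against -0.16 for other X genes and 0.08 for autosomal genes. Of the 242 genes, 179 (74%) had a fold change below 0, a share close to the 74.8% of other X genes and unlike the 34.3% of autosomal genes. Single genes rarely passed: 0 rose and 6 fell at an adjusted p below 0.05, or 2.48%, beside 1.31% of all genes tested (0.278% higher and 1.03% lower) and 6.41% of other X genes, of which 1 rose and 110 fell. Unadjusted, 68 of the 242 had a p below 0.05, as had 536 of 1733 other X genes and 1388 of 10170 autosomal genes. Libraries of the groups did not overlap for 35 members (14.5%), beside 8.38% of all genes. DESeq2 called 17.3% of the members, 1 higher and 36 lower, and the same share of other X genes.

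Met, a juvenile hormone receptor 37.1 kb from roX2 (FBgn0002723, chromosome X, 11616124 to 11621280), was at 53.8, 47.6, 42.8 and 49.1 CPM in the control and at 37.5, 36.4, 34.1 and 38.5 CPM in H4K16R. The groups did not overlap, and its log2 fold change was -0.40 ± 0.10 (edgeR adjusted p = 0.0443). CG10353, 298.7 kb from roX2, was at 168, 169, 178 and 173 CPM in the control and at 134, 141, 149 and 136 CPM in H4K16R, a log2 fold change of -0.30 ± 0.06 (adjusted p = 0.0134). CG6428, 108.2 kb from roX1, was at 15.8, 15.6, 20 and 17 against 11.9, 13.6, 10.9 and 12.1 CPM, with -0.50 ± 0.10 (adjusted p = 0.0152). CDK2AP1, named for a partner of a cell-cycle kinase, had a log2 fold change of -0.35 ± 0.08 (adjusted p = 0.0266), and CG11699, 8.4 kb from roX2, one of -0.35 ± 0.08 (adjusted p = 0.0364). The sixth gene, CG32668, was low in both groups, with means of 0.565 and 1.47 CPM and a log2 fold change of -1.37 ± 0.29 (adjusted p = 0.0184).

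None of the 5 genes named before CG32668 kept its call in a fit of the 2 groups alone (adjusted p from 0.0976 to 0.143), and each also lost it without H4K16R replicate 1 (adjusted p from 0.058 to 0.132). Without H4K16R replicate 3 the picture was stronger: 30 members fell (12.4%), beside calls in 16.9% of other X genes, and the medians were -0.30 for genes near roX, -0.26 for other X genes and 0.02 for autosomal genes. With scaling factors taken from autosomal genes alone, 25 members fell (10.3%), beside calls in 11.7% of other X genes and 356 of all 14365 genes, and 10.1% of the calls among all genes were higher, against 21.3% with the scaling used throughout. Outside the window, the acetyltransferase gene mof, itself on the X, was at 22.8, 22.8, 24.6 and 26.8 CPM in the control and at 17.4, 16.6, 20 and 18.9 CPM in H4K16R. It fell by 0.41 on the log2 scale (SE 0.10, edgeR adjusted p = 0.0443). That call was lost in the 2-group fit (adjusted p = 0.0989) and without any 1 of 5 libraries (adjusted p from 0.0527 to 0.156).

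The Set2 mutant changed many genes near roX in both directions. Of the 242 tested, 63 rose and 50 fell against yw (46.7%), beside 44.5% of all genes tested (23.4% higher and 21.1% lower), so the share called was near the background. The median log2 fold change was 0.09 near roX, 0.01 elsewhere on the X and 0.05 on the autosomes. Libraries of the groups did not overlap for 113 members (46.7%), beside 46% of all genes. At least a 2-fold change was called for 11 members that rose and 13 that fell, of 242, beside 832 and 788 of all 14365 genes. With the main axis of spread as a covariate, 17 rose and 35 fell (21.5%). That axis was computed from the same expression data and separates the Set2 mutant from yw. A Set2 call lost with it can therefore not be credited to either the axis or the genotype, here and below.

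Close to roX2, Kmn1, a kinetochore gene 7.7 kb away (FBgn0027259, chromosome X, 11571383 to 11572442), was at 11.9, 13.4, 9.83 and 11.7 CPM in the Set2 mutant and at 1.39, 1.16 and 1.17 CPM in yw. Among the other 16 libraries it lay between 0.72 and 2.20 CPM, so that the Set2 mutant stood above every library of every other genotype. The log2 fold change was 3.23 ± 0.31 (edgeR adjusted p = 1.44e-07). Its neighbour on the other strand, CG11699, rose by 0.54 ± 0.09 (adjusted p = 9.68e-05), from 46.8 ± 3.93 to 67.8 ± 3.27 CPM (SD, n = 3 and 4). The exons of CG11699 are 96.8% overlapped by Kmn1 and the antisense gene asRNA:CR44266, and 14.8% of the Kmn1 exons overlap CG11699, so without a stated strand setting their reads cannot be told apart.

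Polr2A, the largest subunit of RNA polymerase II and 16.3 kb from roX2, was at 324, 338, 252 and 325 CPM in the Set2 mutant against 250, 236 and 235 CPM in yw, with replicate 3 the lowest of the mutant libraries. It rose by 0.37 ± 0.10 (edgeR adjusted p = 0.0076), a call lost in the fit of the 2 groups alone (adjusted p = 0.0619). Met was at 34.3, 35.6, 28.2 and 37.8 CPM against 46.3, 52.5 and 54.1 CPM, and fell by 0.59 (SE 0.11, adjusted p = 0.000193). CG42541, 34.3 kb from roX1, was at 28.9, 28, 15.1 and 29.1 CPM against 45.8, 44 and 48.4 CPM, and fell by 0.86 (SE 0.18, adjusted p = 0.000713). CG1572, 24 kb from roX2, was at 100, 100, 113 and 126 CPM against 187, 185 and 168 CPM, and fell by 0.71 (SE 0.15, adjusted p = 0.000777). In these 3 genes no mutant library reached the yw range.

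The largest rises among called members of at least 5 CPM were at Kmn1 and 4 other genes, and those 4 also stood high in single libraries of other genotypes. CG15239, 26.9 kb from roX1, was at 154, 55, 36 and 16.9 CPM in the Set2 mutant and at 1.34, 2.06 and 1.80 CPM in yw, with a log2 difference of 5.24 ± 1.44 (edgeR adjusted p = 0.00721). It was also at 72.5 CPM in H4K16R replicate 3 and at 8.51 CPM in histone control replicate 3, against 1.23 to 1.90 CPM in the other 6 libraries of those groups. The adjacent genes miniature (m) and dusky (dy), which encode proteins of the apical surface of epidermal cells, rose by 5.44 ± 1.83 (adjusted p = 0.0226) and 6.18 ± 2.12 (adjusted p = 0.0249), and C901 by 4.16 ± 0.81 (adjusted p = 0.000531). The m and dy calls were lost without any 1 of the yw libraries (adjusted p from 0.0517 to 0.0854), and dy also without Set2 replicate 1 (adjusted p = 0.0526). In H4K16R replicate 3, m was at 12.4 CPM and dy at 9.72 CPM, against at most 0.459 and 0.0539 CPM in the other 3. H4K16R replicate 3 and histone control replicate 3 lie at 97.9 and 42.3 on the main axis of spread, the highest of their groups. With that axis as a covariate, the log2 fold changes became 1.66 for m (adjusted p = 0.0547), 1.72 for dy (adjusted p = 0.218), 2.45 for CG15239 (adjusted p = 0.0183) and 2.43 for C901 (adjusted p = 0.000112).

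**Figure D3:**
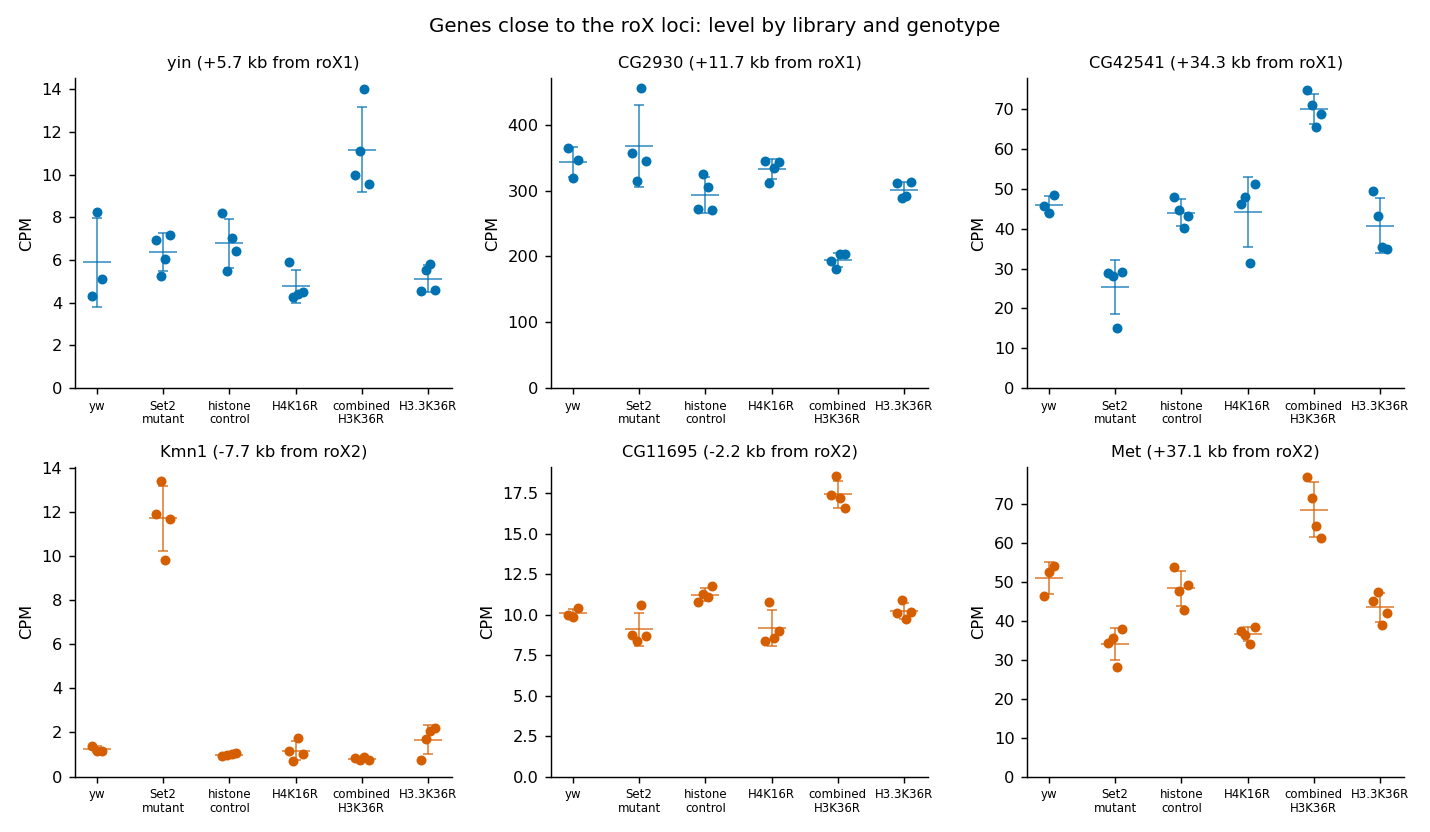
Levels in CPM of 6 genes within 40 kb of roX1 (top) or roX2 (bottom) by genotype, on linear axes, with 1 point per library and the mean ± SD. Kmn1 stands out in the Set2 mutant, at 9.83 to 13.4 CPM, while yin, CG42541, CG11695 and Met are highest and CG2930 is lowest in combined H3K36R.

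Combined H3K36R also changed genes near roX in both directions. Against the histone control 40 rose and 49 fell (36.8%), beside 39.2% of all genes tested (16.4% higher and 22.8% lower). The median log2 fold change was 0.02 near roX, 0.01 elsewhere on the X and -0.05 on the autosomes. Libraries of the groups did not overlap for 98 members (40.5%), beside 42.6% of all genes, and other X genes were called in 45.76%.

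Within 100 kb of either roX start 7 genes rose and 7 fell, of 40 tested (17.5% each). Over all genes 16.4% were higher and 22.8% lower, so the share called was near the background. CG11699 was among those that fell (log2 fold change -0.30 ± 0.08, edgeR adjusted p = 0.00517). yin, a peptide transporter gene 5.7 kb from roX1 (FBgn0265575, chromosome X, 3862966 to 3871939), was at 9.99, 11.1, 14 and 9.57 CPM in combined H3K36R and at 8.21, 5.46, 7.03 and 6.42 CPM in the control, with a log2 difference of 0.72 ± 0.18 (edgeR adjusted p = 0.00321). CG11695, 2.2 kb from roX2 (chromosome X, 11576883 to 11578806), was at 17.4, 18.6, 17.2 and 16.6 CPM against 10.8, 11.3, 11.1 and 11.8 CPM, with 0.63 ± 0.09 (adjusted p = 9.42e-06). CG42541 was at 65.7 to 74.8 CPM against 40.1 to 48.1 CPM, with 0.67 ± 0.17 (adjusted p = 0.00277), and Met at 61.2 to 77 CPM against 42.8 to 53.8 CPM, with 0.50 ± 0.10 (adjusted p = 0.000294). None of these 4 genes had overlapping groups. Drak, a protein kinase gene 85.9 kb from roX2, rose by 0.36 ± 0.07 (adjusted p = 0.000255).

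The neighbours of yin fell. CG2930, 11.7 kb from roX1 and overlapping yin over 4.85% of its exons, was at 193, 181, 203 and 204 CPM in combined H3K36R and at 272, 325, 306 and 270 CPM in the control. Its log2 fold change was -0.59 ± 0.10 (edgeR adjusted p = 4.25e-05). VhaAC39-1, a subunit of the vacuolar proton pump 23.5 kb from roX1, was at 425, 414, 426 and 451 CPM against 504, 547, 544 and 510 CPM, with -0.29 ± 0.09 (adjusted p = 0.00895). Neither gene overlapped between the groups, so genes within 25 kb on the same side of roX1 moved in opposite directions. On the other side of roX1, ec (echinus), fd3F and CG2901 did not pass in any comparison. The log2 fold change of ec in combined H3K36R was -0.04 ± 0.13, and fd3F and CG2901 were at 0.0764 to 0.806 and 1.74 to 4.93 CPM in all libraries.

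Among called members of at least 5 CPM whose groups did not overlap, Sclp and SmydA-4 had the largest rises. Sclp, 341 kb from roX2 (FBgn0030357), was at 117, 102, 80.4 and 50.4 CPM in combined H3K36R and at 18.5, 16.8, 17.4 and 21.8 CPM in the control, with a log2 difference of 2.23 ± 0.18 (edgeR adjusted p = 1.09e-08). The other genotypes held it between 5.18 and 20.3 CPM. SmydA-4, a SET and MYND domain gene, was at 34.3, 32.4, 28.4 and 23.3 CPM against 14.1, 9.08, 11.6 and 13.1 CPM, with 1.31 ± 0.15 (adjusted p = 9.06e-07). Neither gene overlapped between the groups.

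Among called members of at least 5 CPM whose groups did not overlap, the largest falls were at Hsp60A, NO66, Hsc70-3, Tim8 and CG14270. Hsp60A was at 91, 95.3, 207 and 129 CPM in combined H3K36R and at 314, 379, 549 and 381 CPM in the control, with a log2 difference of -1.63 ± 0.26 (edgeR adjusted p = 5.27e-05). Tim8, a chaperone of mitochondrial import, was at 12.4, 11.4, 20.9 and 15.3 CPM against 32.6, 39.3, 51.2 and 39.2 CPM, with -1.44 ± 0.21 (adjusted p = 1.96e-05). In both genes replicate 3 was the highest library of its group, in the control and in combined H3K36R, and the groups did not overlap. Hsc70-3 fell by 1.46 (SE 0.31, adjusted p = 0.000683), the JmjC-domain gene NO66 fell by 1.49 (SE 0.23, adjusted p = 2.39e-05), and CG14270 fell by 1.41 (SE 0.21, adjusted p = 1.67e-05). Library position on the main axis of spread was -41.3, -41, 4.5 and -32.2 for combined H3K36R replicates 1 to 4, which ranks them as Hsp60A does. With the axis as a covariate the 5 falls were between 1.24 (Hsc70-3) and 1.43 (Hsp60A), and all 5 passed. The midgut and fat body marker sums were lower in the same libraries, and their part in these falls was not tested.

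With H3.3K36R alone few genes near roX passed. Against the histone control 6 rose and 3 fell (3.72%), beside 1.96% of all genes tested (0.947% higher and 1.02% lower) and 3.75% of other X genes. The median log2 fold change was 0.10 near roX, 0.05 on the rest of the X and 0.03 on the autosomes. Of the 89 genes tested within 250 kb of either roX locus 0 were called, near the 1.96% of all genes tested. This count does not set these genes apart, and both roX RNAs, not counted here, fell. Libraries did not overlap for 29 members (12%), beside 11% of all genes.

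Pig1, a salivary gland gene 609 kb from roX1, was at 41.7, 38.5, 44.3 and 41 CPM with H3.3K36R and at 79.2, 90.8, 103 and 119 CPM in the control. The groups did not overlap, and the log2 fold change was -1.24 ± 0.12 (edgeR adjusted p = 7.39e-07). vex was at 14.8 to 18.4 against 22.5 to 26.5 CPM, with -0.56 ± 0.11 (adjusted p = 0.00643). Ork1, a potassium leak channel, fell by 0.46 (SE 0.12, adjusted p = 0.0429), a call lost without any 1 of 5 libraries (adjusted p from 0.0681 to 0.156) and in the 2-group fit (adjusted p = 0.104). CG2157 was at 15.1, 15.4, 19.7 and 15.5 CPM against 9.73, 7.52, 7.79 and 5.37 CPM, with 1.11 ± 0.23 (adjusted p = 0.0104, and 0.0558 without H3.3K36R replicate 3). CG2875 was at 25.8 to 32.4 against 16.1 to 18.8 CPM, with 0.78 ± 0.16 (adjusted p = 0.0104), lost without H3.3K36R replicate 3 (0.0505) or control replicate 2 (0.0528). ATP7, a copper transporter, was at 92 to 96.4 against 71.1 to 80.6 CPM, with 0.32 ± 0.07 (adjusted p = 0.0171), lost without any 1 of 7 libraries (adjusted p from 0.0602 to 0.103). In yw, vex was at 16.3 to 18.8, CG2875 at 24.5 to 29.5 and ATP7 at 93.9 to 106 CPM. For these genes H3.3K36R thus overlapped yw and the control did not, while for Pig1, Ork1 and CG2157 H3.3K36R did not overlap yw. The remaining 3 calls, all higher, were CG3568 at 3.48 against 1.40 CPM, CG15741 at 7.25 against 1.71 CPM and Cyp318a1 at 0.634 against 0.149 CPM (group means).

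Combined H3K36R was also compared with H3.3K36R alone, from which it differs by the H3.2K36R label. Of the genes near roX 38 were higher and 71 lower (45%), beside 47.7% of all genes tested (19.7% higher and 28% lower), and libraries did not overlap for 121 (50%), beside 49.7%. Scaling by DESeq2's size factors moved the split to 45 higher and 59 lower, and it moved the median of all genes from -0.03 to 0.04. yin was higher by 1.12 ± 0.18 (edgeR adjusted p = 3.1e-05), CG11695 by 0.77 ± 0.09 (adjusted p = 5.3e-07) and Met by 0.66 ± 0.10 (adjusted p = 1.05e-05), beside roX1 at 1.12. Hsp60A was lower by 2.17 on the log2 scale (log2 fold change -2.17 ± 0.27, adjusted p = 1.6e-06), and NO66 had a log2 fold change of -2.06 ± 0.23 (adjusted p = 3.98e-07). Pig1 was at -0.03 ± 0.12 (adjusted p = 0.852), with 33.5 to 49.2 CPM in combined H3K36R and 38.5 to 44.3 CPM in H3.3K36R alone.

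**Figure D4:**
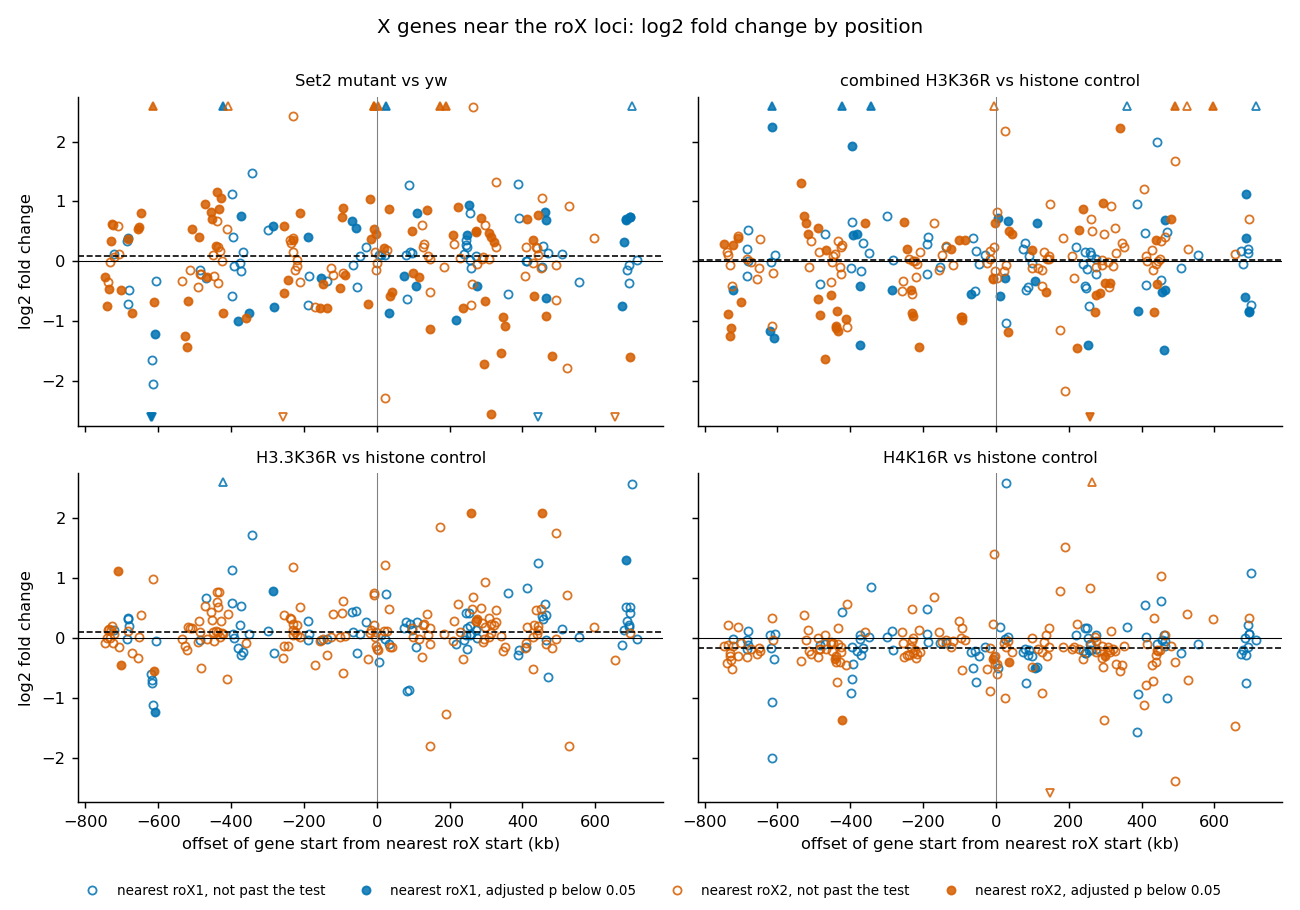
Log2 fold change of each of the 242 tested genes against the offset of its start from the nearest roX start in kb, in 4 comparisons. Filled points passed an adjusted p below 0.05, the dashed line is the median of the panel, and triangles mark genes beyond 2.6 on the log2 axis. The H4K16R points lie mostly below 0 along the whole window, with a median of -0.17. Rank correlations of fold change with distance over both loci lie between -0.10 (Set2 mutant) and 0.05 (H4K16R) in these panels.

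Distance to roX ordered the fold changes weakly at most when taken over the whole window. Spearman's rank correlation across genes between distance and log2 fold change was between -0.10 and 0.13 in all comparisons, whether both loci or each alone were taken. Genes are not independent replicates and share their libraries, so these are descriptions. In H4K16R the median was -0.24 for the 40 genes within 100 kb, -0.15 for the 49 genes from 100 to 250 kb, -0.18 for the 99 genes from 250 to 500 kb and -0.14 for the 54 genes beyond. In the Set2 mutant the medians over the same steps were 0.15, 0.06, 0.08 and -0.10. The other X genes had medians of -0.16 and 0.01 in these comparisons.

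Calls in the Set2 mutant within 100 kb were counted at each locus, beside 44.5% of all genes. Near roX2, 12 of 23 genes rose and 5 fell, so that 73.9% were called. Near roX1, 3 of 17 rose and 2 fell (29.4%), a thinly filled step. The mean log2 CPM of all genes within 100 kb, relative to other X genes, was 0.33, 0.36, 0.40 and 0.44 in the Set2 mutant and -0.06, -0.14 and 0.02 in yw, without overlap. That mean weighs low genes as much as high ones. Among the low ones in yw are Kmn1 and CG15239, the latter at 1.34 to 2.06 CPM in yw and 16.9 to 154 CPM in the Set2 mutant. So are the roX2 neighbours Reepl1 and pkm. Both of these were called in the Set2 mutant but did not exceed 0.344 CPM in any library. pkm was at 0.286, 0.242, 0.344 and 0.183 CPM there and at 0, 0 and 0.00902 CPM in yw (edgeR adjusted p = 0.000843). Reepl1 was at 0.0154 to 0.252 against 0 to 0.00856 CPM (adjusted p = 0.0352), a call lost without any 1 of 5 libraries (adjusted p from 0.052 to 0.124). Of the others next to roX2, e(y)2, a subunit of transcription and export complexes, rose by 0.46 ± 0.16 (adjusted p = 0.025, lost without yw replicate 2 or 4 or Set2 replicate 3 at 0.0784 to 0.123), while CG11696 and the kinesin gene nod passed in no comparison. Whether the loci differed from each other was not tested.

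The same genes could be compared in the Set2 mutant and in combined H3K36R, since these comparisons share no libraries. Of the genes near roX 58 passed in both, 51.3% of the Set2 calls and 65.2% of the combined H3K36R calls. For 48 of them (82.8%) the directions were opposite: 27 rose in the Set2 mutant and fell in combined H3K36R, and 21 did the reverse. Elsewhere on the X 402 of 456 were opposite (88.2%), and among all genes 2522 of 3142 (80.3%), so the genes near roX did as genes did in general.

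Hsp60A was at 1094, 1117, 1122 and 828 CPM in the Set2 mutant and at 559, 516 and 525 CPM in yw, a rise of 0.96 ± 0.29 (edgeR adjusted p = 0.0101) where combined H3K36R fell. Tim8 rose by 0.81 ± 0.23 (adjusted p = 0.00813) and NO66 by 0.82 ± 0.24 (adjusted p = 0.0101, and 0.0514 without yw replicate 4). The reverse held for Sclp, at 5.68, 5.18, 5.45 and 6.70 CPM in the Set2 mutant and 18.9, 17.3 and 13.6 CPM in yw, which fell by 1.53 (SE 0.19, adjusted p = 4.06e-06). CG15739 fell by 1.72 in the Set2 mutant (SE 0.19, adjusted p = 9.63e-07) and rose by 0.97 ± 0.17 in combined H3K36R (adjusted p = 0.000138). Muc11A, a mucin gene, fell by 1.59 (SE 0.17, adjusted p = 8.35e-07) and rose by 0.70 ± 0.16 (adjusted p = 0.00125), and norpA, the phospholipase C of phototransduction, fell by 0.62 (SE 0.15, adjusted p = 0.00235) and rose by 0.69 ± 0.14 (adjusted p = 0.000424). When library position on the axis entered as a covariate, the Set2 calls of Hsp60A, Tim8, NO66 and norpA were lost (adjusted p = 0.229, 0.183, 0.266 and 0.0606), while those of Sclp, CG15739 and Muc11A held.

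In 10 genes the direction was the same, 3 higher and 7 lower in both. Pig1 was at 33.4, 32.1, 40 and 35.3 CPM in the Set2 mutant and at 71.4, 87.6 and 86.3 CPM in yw, a fall of 1.22 (SE 0.13, edgeR adjusted p = 6.2e-07). In combined H3K36R it was at 37.6, 33.5, 41.5 and 49.2 CPM and fell by 1.28 (SE 0.12, adjusted p = 6.79e-08). All 12 libraries of the Set2 mutant and of both H3K36R genotypes thus lay between 32.1 and 49.2 CPM, and all 11 libraries of yw, the histone control and H4K16R between 71.4 and 119 CPM. CG14265, 621 kb from roX1, was at 56.1, 39.9, 68 and 47.3 CPM in the Set2 mutant against 325, 363 and 297 CPM in yw, and fell by 2.63 (SE 0.20, adjusted p = 7.57e-09). In combined H3K36R it was at 232 to 302 CPM against 555 to 634 CPM, and fell by 1.17 (SE 0.19, adjusted p = 4e-05). Ork1 fell in both as well, by 0.49 (SE 0.13, adjusted p = 0.00369) and 0.68 (SE 0.12, adjusted p = 8.61e-05).

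**Figure D5:**
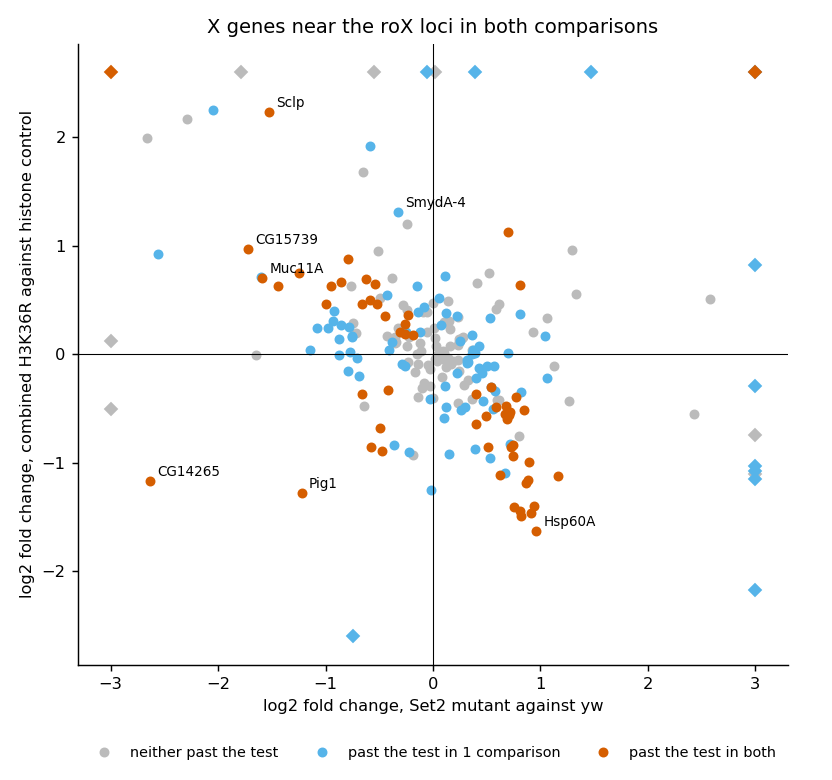
Log2 fold change of each gene near the roX loci in the Set2 mutant against yw (horizontal) and in combined H3K36R against the histone control (vertical), coloured by whether it passed the test in neither, 1 or both comparisons. Of the 58 that passed in both, 48 lie in the upper left or lower right part of the plot; diamonds mark genes beyond 3 on the horizontal or 2.6 on the vertical axis.

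Members with named roles were few. Of 11 tested genes of Notch, patterning and growth signalling, 0 rose and 2 fell in the Set2 mutant, beside 23.4% higher and 21.1% lower over all genes. The 2 were the adhesion gene Fas2, by 0.41 (SE 0.11, edgeR adjusted p = 0.00367), and the GTPase gene Rala, by 0.29 (SE 0.07, adjusted p = 0.00361). Both calls were lost in the 2-group fit, at 0.0537 and 0.0521. In combined H3K36R the Notch receptor gene N, 722 kb from roX1, was at 54.1, 53.4, 62.6 and 63.4 CPM against 81.7, 74.3, 87.4 and 83.3 CPM and fell by 0.49 (SE 0.12, adjusted p = 0.00224). It was the only one of the 11 called there, beside 39.2% of all genes tested. Of 6 genes listed under neuronal function, 4 fell in the Set2 mutant (norpA, Fas2, Ork1 and Drak) and 0 rose, beside 21.1% lower over all genes. Fas2 stands in both lists. None of the 4 passed with the axis, on which the Set2 mutant and yw do not overlap, as a covariate (adjusted p from 0.0544 to 0.147). The Drak call was lost without yw replicate 2 or 4 (adjusted p = 0.0739 and 0.0905) and in the 2-group fit (adjusted p = 0.1). The neuron marker sum was lower in the same libraries, and its part was not tested. In combined H3K36R norpA and Drak rose and Ork1 fell. The neuron marker sum was higher than in the control there, and its part was not tested either. Of 5 transcription and chromatin genes, 3 rose in the Set2 mutant (Polr2A, CG2202 and l(1)10Bb, beside 23.4% higher over all genes, of which CG2202 did not pass without yw replicate 4, at 0.113) and 0 fell, and none passed in combined H3K36R, H3.3K36R or H4K16R. None of the 3 passed with the axis as a covariate (adjusted p from 0.175 to 0.247), where Polr2A was at 0.19 and l(1)10Bb at 0.24. Of 2 mitochondrial and metabolic genes, Tim8 rose and Cyp4g15, a cytochrome P450, fell in the Set2 mutant, and the reverse held in combined H3K36R.

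Of the 10 dosage compensation genes, which include the roX RNAs, 4 were higher and 0 lower in combined H3K36R than in H3.3K36R alone. Over all genes tested 19.7% were higher and 28% lower there. The 4 were roX1, msl-3 (by 0.46), msl-2 (by 0.39) and Clamp (by 0.36). Against the histone control 2 rose and 0 fell, beside 16.4% higher and 22.8% lower over all genes. Clamp, which encodes a zinc finger protein that binds entry sites of the complex, was at 84.4, 84.2, 78.2 and 79.1 CPM in combined H3K36R and at 64.1, 62.4, 64.7 and 61.7 CPM in the control. It rose by 0.37 ± 0.06 (edgeR adjusted p = 6.86e-05), and msl-3 rose by 0.41 ± 0.09 (adjusted p = 0.000975), while msl-1, msl-2, mle, mof, JIL-1 and Sxl did not pass there. In the Set2 mutant 1 of the 10 rose and 3 fell, beside 23.4% higher and 21.1% lower over all genes. There mof rose by 0.31 ± 0.11 (edgeR adjusted p = 0.0236), and roX1, msl-3 (by 0.24) and Sxl (by 0.55) fell. Each of those 4 calls was lost without yw replicate 4 (adjusted p from 0.0718 to 0.162), for roX1, msl-3 and mof also without some other libraries, and for all 4 with the axis as a covariate (adjusted p from 0.16 to 0.46). In H3.3K36R only the roX RNAs of the 10 were called, both lower, beside 1.02% lower over all genes.

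The histone control was set against yw to show what the control background carries. Of the genes near roX 6 rose and 8 fell (5.79%), beside 8.08% of all genes tested (4% higher and 4.08% lower), with a median log2 fold change of -0.05 near roX, -0.05 elsewhere on the X and -0.04 on the autosomes. Libraries did not overlap for 50 members (20.7%), beside 22.4% of all genes. The mean log2 CPM of all tested genes near roX overlapped between the groups, relative to autosomal genes and to other X genes. With genes of at least 5 CPM only, the control was lower without overlap, at -0.054 ± 0.013 and -0.053 ± 0.012 in the same order. CG10353 was at 168, 169, 178 and 173 CPM in the control and at 284, 288 and 305 CPM in yw, with a log2 difference of -0.76 ± 0.06 (edgeR adjusted p = 1.75e-08). regucalcin had -1.04 ± 0.20 (adjusted p = 0.00143), and CG14265 had 0.84 ± 0.20 (adjusted p = 0.011, and 0.0672 without yw replicate 4). Of the genes called in H3.3K36R, CG2875 had -0.66 ± 0.17 here (adjusted p = 0.0201, and 0.112 without yw replicate 2). vex was called higher, at 22.5 to 26.5 CPM against 16.3 to 18.8 CPM, but not without yw replicate 3 (adjusted p = 0.087). roX1 was at 0.50 ± 0.16 and did not pass (adjusted p = 0.0598), though its lowest control library, at 1099 CPM, lay above its highest yw library, at 1031 CPM.

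Across all 6 comparisons 83 of the 242 genes passed in none and 159 in at least 1. By number of comparisons, 47 genes passed in 1, 53 in 2, 51 in 3, 6 in 4 and 2 in 5, and 0 passed in all 6. Comparisons that share the histone control, H3.3K36R or yw are not independent of each other, so these counts describe the genes only. They were not made over all genes tested, so whether genes near roX differ from others in them is not known.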

How the data were processed

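The authors' deposited file held raw read counts per gene for 23 libraries, whole numbers for 17606 FlyBase identifiers. The submitters' processing notes name the tools STAR (2.7.2a) and Subread (2.0.3). The build was not given in the sources used here, nor were annotation and strand setting. Per the labels' protocols, yw replicate 1 was dropped after an error in library construction, and libraries were read as paired ends of 100 bp. Among counts from 5 to below 20, 62.1% were even, so precision may be below what the totals imply. Replicates differed by at least 22.9 times counting error (chi-square per degree of freedom). The labels do not say that replicates came from separate cultures, so p-values measure the spread between these samples, which may be technical.

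Positions came from the Ensembl BDGP6.54 annotation, which matched 17527 identifiers (99.55%). edgeR 4.0.16 (R 4.3.3) kept 14365 genes (filterByExpr, minimum count 10), scaled by TMM and fitted all 23 libraries together by quasi-likelihood, with 1 mean for each group (17 residual degrees of freedom, biological coefficient of variation 0.311). Tests were two-sided, adjusted by Benjamini-Hochberg over all genes tested, and called below 0.05. CPM are counts scaled to TMM library sizes, and the relative level used log2 CPM with a prior count of 2. The SE was the fold change divided by the root of its F statistic. The main axis of spread is the first component of within-group deviations in log2 CPM of the histone genotypes, onto which all libraries were projected. The fit was tested on simulated data. DESeq2 1.42.0 was an alternative.

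Members and gene lists were chosen with earlier results of these data known. Named genes were the roX RNAs, the 8 tested members nearest each roX start, up to 5 called members per direction and comparison (mean of at least 5 CPM, groups without overlap), up to 3 genes of each role list and the dosage compensation genes. CG32668, CG3568, CG15741, Cyp318a1 and CG3546 were named after their values were seen.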

Additional observations from a re-analysis of the deposited data

Results flagged for a closer look

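In groups of 4 libraries, a library was singled out where its gap to the nearest other exceeded Dixon's critical value. This was so in 29 of 345 groups of values, where chance gives about 1 in 20. No explanation was weighed. H4K16R replicate 3 was the highest of its group for 9 genes: CG15239 at 72.5 CPM, m at 12.4, dy at 9.72, C901 at 4.17, CG2157 at 13.7, N at 97, Hsp60A at 675, Tim8 at 70.7 and Hsc70-3 at 1677 CPM. Histone control replicate 3 was the highest for CG15239 at 8.51, m at 6.73, dy at 2.76 and C901 at 2.77 CPM, and combined H3K36R replicate 3 for m at 2.27 CPM. These are the libraries that lie highest of their groups on the main axis of spread.

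In the Set2 mutant, replicate 3 was the lowest for CG42541 at 15.1, Sxl at 101 and Polr2A at 252 CPM, and the highest for CG11695 at 10.6 and roX2 (lncRNA:roX2) at 86.6 CPM. Replicate 4 of that group was the lowest for Hsp60A at 828 CPM, and replicate 1 the highest for dy at 24.8 CPM. In H3.3K36R, replicate 1 was the highest for Clamp at 67 CPM and pkm at 0.182 CPM and the lowest for mle at 51.8 CPM, and replicate 3 was the highest for CG2157 at 19.7 CPM. The remaining 4 were mle in histone control replicate 4 at 59 CPM, yin in H4K16R replicate 1 at 5.9 CPM, CG2202 in combined H3K36R replicate 1 at 28.5 CPM and Reepl1 in H4K16R replicate 4 at 0.0417 CPM.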

How the results depend on the processing

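The share of genes near roX that passed changed by over 1.5 times under these alternatives. In the Set2 mutant (46.7%) it was 21.5% with the axis of spread, on which the mutant and yw do not overlap, as a covariate. In H3.3K36R (3.72%) it was 7.02% with a replicate block, 6.54% with DESeq2, 0% in a window of 250 kb and 2.13% in one of 500 kb. In H4K16R (2.48%) it was 4.13% with DESeq2's size factors (RLE), 10.3% with autosomal scaling, 3.82% without a filter on low counts, 4.13% with a replicate block, 12% with the axis as a covariate, 0% (0 of 221; with DESeq2 17.3%) with only the groups compared, and 68 genes had an unadjusted p below 0.05 in the fit of all groups. In the histone control against yw (5.79%) it was 9.5% with the axis. Leaving out 1 library gave 32.7% to 47.1% in the Set2 mutant, 29.6% to 37.4% in combined H3K36R, 1.24% to 4.56% in H3.3K36R (under 2.48% without control replicate 1, at 2.06%, or H3.3K36R replicates 2, 3 or 4, at 2.47%, 1.24% and 2.07%), 0.826% to 12.4% in H4K16R (0.833% and 0.826% without H4K16R replicate 1 or 4, 1.24% without control replicate 4, 12.4%, 6.22% and 4.56% without H4K16R replicate 3 or control replicate 2 or 3), 38.6% to 42.1% in combined H3K36R against H3.3K36R and 2.82% to 4.98% in the histone control against yw (3.21% and 2.82% without yw replicate 3 or 4, 3.7% without control replicate 1). The cause of these shifts was not tested. Of 139 calls of named genes 86 held under every alternative run, and 53 were lost under at least 1: 29 with the axis, 19 in 2-group fits, 3 without the filter, 2 with the replicate block, 1 with RLE and 41 without some 1 library. dy in combined H3K36R against H3.3K36R went from -0.89 (not called) to 3.33 with the axis (adjusted p = 0.00634). Replicate numbers were not taken to pair libraries: deviations of same-numbered libraries correlated at -0.10 to 0.43 (median 0.03), with 14 of 55 pairs over 0.1, against 11 of 165 pairs with different numbers. As a hint from the data, 12 of 23 libraries correlated best with their own number. With the replicate block 14 members rose and 3 fell in H3.3K36R, and the share of higher calls over all genes there moved from 48.2% to 70.4%, and DESeq2 and the axis moved that of H4K16R from 21.3% to 30.5% and 33.8%. Depth limits genes under about 1 CPM, 19.42% of the tested members.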

Other observations

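CG3546, 700.8 kb from roX1, had the largest fitted rise of the genes near roX in the Set2 mutant, with means of 334 CPM against 4.57 CPM in yw and a log2 fold change of 6.19 ± 2.68, which did not pass (edgeR adjusted p = 0.0706). Its libraries did not overlap between those groups, and its mean was 17.9 CPM in the histone control, 37.9 CPM in H4K16R, 10.7 CPM in combined H3K36R and 107 CPM in H3.3K36R. CG15741, 258.5 kb from roX2, was at a mean of 0.101 CPM in combined H3K36R, 1.71 CPM in the histone control and 7.25 CPM in H3.3K36R, with a log2 fold change of -6.15 ± 0.65 between the H3K36R genotypes (adjusted p = 2.48e-07).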
